A study of Arabidopsis thaliana with 18 samples.

Results

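A set of 10 genes that make salicylic acid, switch its synthesis on or convert it to other compounds were followed in leaf RNA of Arabidopsis thaliana. They were chosen by locus for these roles, and all 10 were found among the 23790 genes of the count table and passed the filter on low counts, as did 18344 genes in all. The synthesis genes were ICS1 (AT1G74710), EDS5 (AT4G39030), PBS3 (AT5G13320) and EPS1 (AT5G67160). The regulators were CBP60g (AT5G26920) and SARD1 (AT1G73805). The turnover genes were DMR6 (AT5G24530), DLO1 (AT4G10500), BSMT1 (AT3G11480) and UGT74F2 (AT2G43820). The choice by role used no measured value, but it was made with earlier results of these data known. In TAIR10.1 all 10 are protein-coding genes. The synthesis genes lie at chr1:28070295-28074177 (ICS1), chr4:18185437-18189224 (EDS5), chr5:4267456-4271064 (PBS3) and chr5:26797596-26799265 (EPS1), and the regulators at chr5:9475679-9478777 (CBP60g) and chr1:27744790-27749248 (SARD1). The turnover genes lie at chr5:8378759-8383401 (DMR6), chr4:6491017-6492578 (DLO1), chr3:3614421-3617342 (BSMT1) and chr2:18152078-18153908 (UGT74F2).

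Salicylic acid is the hormone that plants raise against pathogens that feed on living tissue. In Arabidopsis leaves most of it comes from chorismate through isochorismate, made by ICS1 in the chloroplast, exported by EDS5, joined to glutamate by PBS3 and released as salicylic acid with the help of EPS1. CBP60g and SARD1 are related transcription factors that bind the ICS1 promoter, and hydroxylation, methylation and glucosylation draw the hormone down again.

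The study compared a transgenic line with a dexamethasone-inducible artificial microRNA (amiRNA) against NAA50, an N-terminal acetyltransferase gene, with a control line carrying an inducible scrambled amiRNA. Each line was sampled 0, 12 and 24 h after a spray of 50 µM dexamethasone, with 3 libraries per line and time and 18 in all. Plants were aged 4 weeks, on a cycle of 8 h light and 16 h dark, and a sample pooled 0.4 g of tissue from the 4th leaves of 4 plants. Both lines carry a transgene and both were sprayed, there were no unsprayed samples, and the labels do not say how many independent transformants each line stands for. The spray and the passing of time therefore cannot be told apart within a line, and 12 h also differs from 0 and 24 h in time of day. Nothing says that the 3 samples of a group came from separately grown sets of plants, so the p-values measure the spread between these samples.

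Libraries held 10389333 to 12353330 counts. The targeted gene, NAA50 (AT5G11340), had levels of 3.75, 4.15 and 3.12 CPM, the counts scaled to the size of the library, in the NAA50 line at 12 h, against 16.6, 12.8 and 15.7 CPM in the scrambled line. At 24 h AT5G11340 had 2.36, 3.31 and 4.62 CPM in the NAA50 line, against 17.7, 17.1 and 16.0 CPM in the scrambled line. The groups did not overlap at either time (log2 difference at 24 h -2.28 ± 0.18 SE, adjusted p = 1.47e-07). Library 2 of the scrambled line at 0 h stood apart from the other libraries in a principal component analysis. It was the lowest of its 3 libraries for 7 of the 9 members that had counts there, and library 3 was the highest for 8 of the 9. Changes that use the scrambled line at 0 h therefore rest on unlike libraries, and the calls below that changed when a library was left out are named with it.

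The promoters of 3 members are printed because ICS1 and EDS5 followed each other closely across the libraries, as described below, while SARD1, whose product binds the ICS1 promoter, was not called in a line difference. Each is the 300 bases before the annotated gene start, read from the RefSeq genome TAIR10.1, 5′ to 3′ on the strand of the gene. Capitals mark matches, on either strand, to TTGACC or TTGACT (the W-box bound by WRKY factors), GAAATTT (a motif bound by CBP60g and SARD1), CGCG (the core bound by CAMTA factors) and TGACG (the core bound by TGA factors).
ICS1 promoter, chr1:28069995-28070294, plus strand: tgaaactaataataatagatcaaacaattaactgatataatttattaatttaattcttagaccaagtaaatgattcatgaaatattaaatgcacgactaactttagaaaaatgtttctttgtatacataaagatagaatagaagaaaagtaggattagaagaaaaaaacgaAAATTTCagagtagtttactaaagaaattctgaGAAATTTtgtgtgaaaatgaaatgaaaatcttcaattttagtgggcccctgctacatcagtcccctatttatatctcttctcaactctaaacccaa
EDS5 promoter, chr4:18185137-18185436, plus strand: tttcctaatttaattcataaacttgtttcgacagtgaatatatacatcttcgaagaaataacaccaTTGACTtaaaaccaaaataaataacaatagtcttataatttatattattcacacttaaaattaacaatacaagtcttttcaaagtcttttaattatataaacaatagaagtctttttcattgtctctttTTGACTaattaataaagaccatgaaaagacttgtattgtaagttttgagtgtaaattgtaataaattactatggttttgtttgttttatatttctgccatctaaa
SARD1 promoter, chr1:27749249-27749548, minus strand: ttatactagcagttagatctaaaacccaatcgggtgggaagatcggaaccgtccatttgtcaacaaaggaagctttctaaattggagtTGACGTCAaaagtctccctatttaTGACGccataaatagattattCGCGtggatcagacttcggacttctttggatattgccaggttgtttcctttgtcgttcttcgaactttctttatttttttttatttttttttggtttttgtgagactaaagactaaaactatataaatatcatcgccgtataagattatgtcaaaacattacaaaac
The ICS1 window held GAAATTT 2 times, 129 and 96 bases before the start. The EDS5 window held TTGACT 2 times, 234 and 105 bases before the start. The SARD1 window held TGACG 3 times, 212, 209 and 188 bases before the start, of which the first 2 overlap on opposite strands, and CGCG 167 bases before it. Of 27443 promoter windows of the same length, 32.3% held a W-box, 14.9% GAAATTT, 11.8% CGCG and 21.3% TGACG. These are matches of letters and not measured binding sites.

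Among the 4 synthesis genes, ICS1, EDS5 and EPS1 were called lower in the NAA50 line at 24 h and PBS3 was not. Whether PBS3 differed from the others was not tested. ICS1 had 239.7, 122 and 88.4 CPM in NAA50 line leaves at 24 h, against 471, 491 and 294 CPM in the scrambled line. The groups did not overlap, and ICS1 was 2.79-fold lower in the NAA50 line (log2 difference -1.48 ± 0.47 SE, adjusted p = 0.0173). At 12 h ICS1 had 103, 104 and 255 CPM in the NAA50 line, against 157, 236 and 419 CPM in the scrambled line, and the groups overlapped (-0.81 ± 0.47, adjusted p = 0.168). At 0 h ICS1 averaged 84.5 ± 17.3 CPM in the NAA50 line and 62.9 ± 31.7 CPM in the scrambled line (SD, n = 3 each). The 24 h difference lost its call without NAA50 line library 2 (adjusted p = 0.0663) or library 3 (adjusted p = 0.0705), and ICS1 was called lower at 12 h without NAA50 line library 3 of that time (-1.38, adjusted p = 0.037).

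EDS5, the exporter of isochorismate, differed between the lines in the same direction as ICS1. It had 40.6, 18.3 and 21.7 CPM in NAA50 line leaves at 24 h, against 106, 114 and 59.7 CPM in the scrambled line. The groups did not overlap, and EDS5 was 3.47-fold lower in the NAA50 line (-1.80 ± 0.55, adjusted p = 0.0134). At 12 h EDS5 had 23.5, 22.3 and 47.3 CPM in the NAA50 line, against 43.3, 72.6 and 111 CPM in the scrambled line (-1.29 ± 0.54, adjusted p = 0.0619). The 24 h call ended without NAA50 line library 2 (adjusted p = 0.059). The 12 h difference was called by DESeq2 (adjusted p = 0.0416) and in the fit of only those groups (adjusted p = 0.027). It was also called without NAA50 line library 3 or scrambled line library 1 of 12 h, or without scrambled line library 2 or 3 of 0 h (adjusted p = 0.0257 to 0.0427). Deviations of same-numbered samples correlated weakly between the lines at 12 h (0.128, 0.22 and 0.342), and the numbers did not pair the samples across the study. With the number as a block EDS5 was called at 12 h (adjusted p = 0.046). Within numbers, ICS1, EDS5, PBS3, EPS1, DMR6 and DLO1 were each lower in the NAA50 line in all 3 pairs at 12 h. The share of all genes that went 1 way in all 3 pairs was not counted. It includes the 59.2% of all genes whose groups did not overlap at 12 h. With that share unknown and the numbers not pairing the samples, nothing about the members is concluded from these pairs.

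PBS3, which joins glutamate to isochorismate, was not called in either line difference. It had 442, 192 and 253 CPM in NAA50 line leaves at 24 h, against 439, 463 and 402 CPM in the scrambled line. NAA50 line library 1 lay within the scrambled range and the other two below it (-0.56 ± 0.53, adjusted p = 0.401). The 95% interval of that difference, -1.70 to 0.59, includes differences as large as that of ICS1. At 12 h PBS3 had 120, 103 and 202 CPM in the NAA50 line, against 148, 235 and 446 CPM in the scrambled line (-0.97 ± 0.53, adjusted p = 0.15).

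EPS1, the last enzyme of the route, was the only member called between the lines at 12 h. It had 1.02, 0.706 and 0.985 CPM in NAA50 line leaves at 12 h, against 5.01, 3.64 and 6.07 CPM in the scrambled line. EPS1 was 5.44-fold lower in the NAA50 line (-2.43 ± 0.33, adjusted p = 3.48e-05). At 24 h it had 1.67, 1.32 and 2.91 CPM in the NAA50 line, against 6.72, 6.43 and 4.72 CPM in the scrambled line, and was 3.03-fold lower (-1.57 ± 0.30, adjusted p = 5.51e-04). The groups did not overlap at either time. At 0 h EPS1 averaged 3.34 ± 0.994 CPM in the NAA50 line and 3.28 ± 0.745 CPM in the scrambled line (SD, n = 3 each). Both line differences after the spray were called with each of the 18 libraries left out in turn.

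The regulators CBP60g and SARD1 were not called in any line difference. CBP60g had 644, 545 and 335 CPM in NAA50 line leaves at 24 h, against 351, 384 and 349.6 CPM in the scrambled line. NAA50 line libraries 1 and 2 lay above the scrambled range and library 3 just below it (0.49 ± 0.32, adjusted p = 0.225, 95% interval -0.21 to 1.2). SARD1 had 301, 291 and 214 CPM in NAA50 line leaves at 24 h, against 310.3, 412 and 227 CPM in the scrambled line (-0.24 ± 0.34, adjusted p = 0.594, 95% interval -0.98 to 0.51). At 12 h CBP60g averaged 243 ± 35.7 CPM in the NAA50 line and 291 ± 57.8 CPM in the scrambled line (SD, n = 3 each). SARD1 had 232, 210.2 and 258 CPM in NAA50 line leaves at 12 h, against 147, 265 and 272 CPM in scrambled line leaves (0.03 ± 0.34, adjusted p = 0.944). Without scrambled line library 3 at 0 h, CBP60g was called higher in the NAA50 line at 0 h (1.12, adjusted p = 0.0472).

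Both salicylic acid hydroxylases were lower in the NAA50 line at 24 h. DMR6, the 5-hydroxylase, had 512, 381 and 467 CPM in the NAA50 line, against 865, 1169 and 712 CPM in the scrambled line. It was 2.02-fold lower (-1.01 ± 0.32, adjusted p = 0.0155), and the call ended without NAA50 line library 2 (adjusted p = 0.0639) or scrambled line library 2 (adjusted p = 0.0674). DLO1, the 3-hydroxylase, had 152, 71.2 and 171 CPM in NAA50 line leaves at 24 h, against 548, 866 and 423 CPM in the scrambled line. It was 4.66-fold lower (-2.22 ± 0.62, adjusted p = 0.00829) and stayed called with each library left out in turn. Neither gene's groups overlapped at 24 h. At 12 h their groups did not overlap either, with DMR6 at 505 ± 68.2 CPM in the NAA50 line and 720.4 ± 179 CPM in the scrambled line and DLO1 at 167 ± 26.3 CPM in the NAA50 line and 302 ± 169 CPM in the scrambled line (SD, n = 3 each). Neither 12 h difference passed the test (adjusted p = 0.198 for DMR6 and 0.262 for DLO1).

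Neither the methyltransferase nor the glucosyltransferase gene showed a line difference that held across the fits. BSMT1, the methyltransferase that makes volatile methyl salicylate, had 1, 55 and 14 counts in the NAA50 line at 24 h, against 1, 3 and 1 counts in the scrambled line. At 12 h BSMT1 had 0, 0 and 15 counts in the NAA50 line, against 0, 0 and 1 in the scrambled line, and at 0 h 3, 0 and 2 in the NAA50 line, against 0, 0 and 0 in the scrambled line. The 24 h difference was called higher (adjusted p = 0.0336), although the groups overlapped, and it rested on 1 library: without NAA50 line library 2 the adjusted p was 0.285. DESeq2 did not call it (adjusted p = 0.0574), and it was also lost without any 1 of the 3 scrambled line libraries of that time. With so few counts no fold is given. UGT74F2, which makes the glucose ester of salicylic acid, had 172, 224 and 389 CPM in NAA50 line leaves at 24 h, against 176, 229 and 175 CPM in the scrambled line, and the groups overlapped (0.44 ± 0.40, adjusted p = 0.391).

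**Figure D1:**
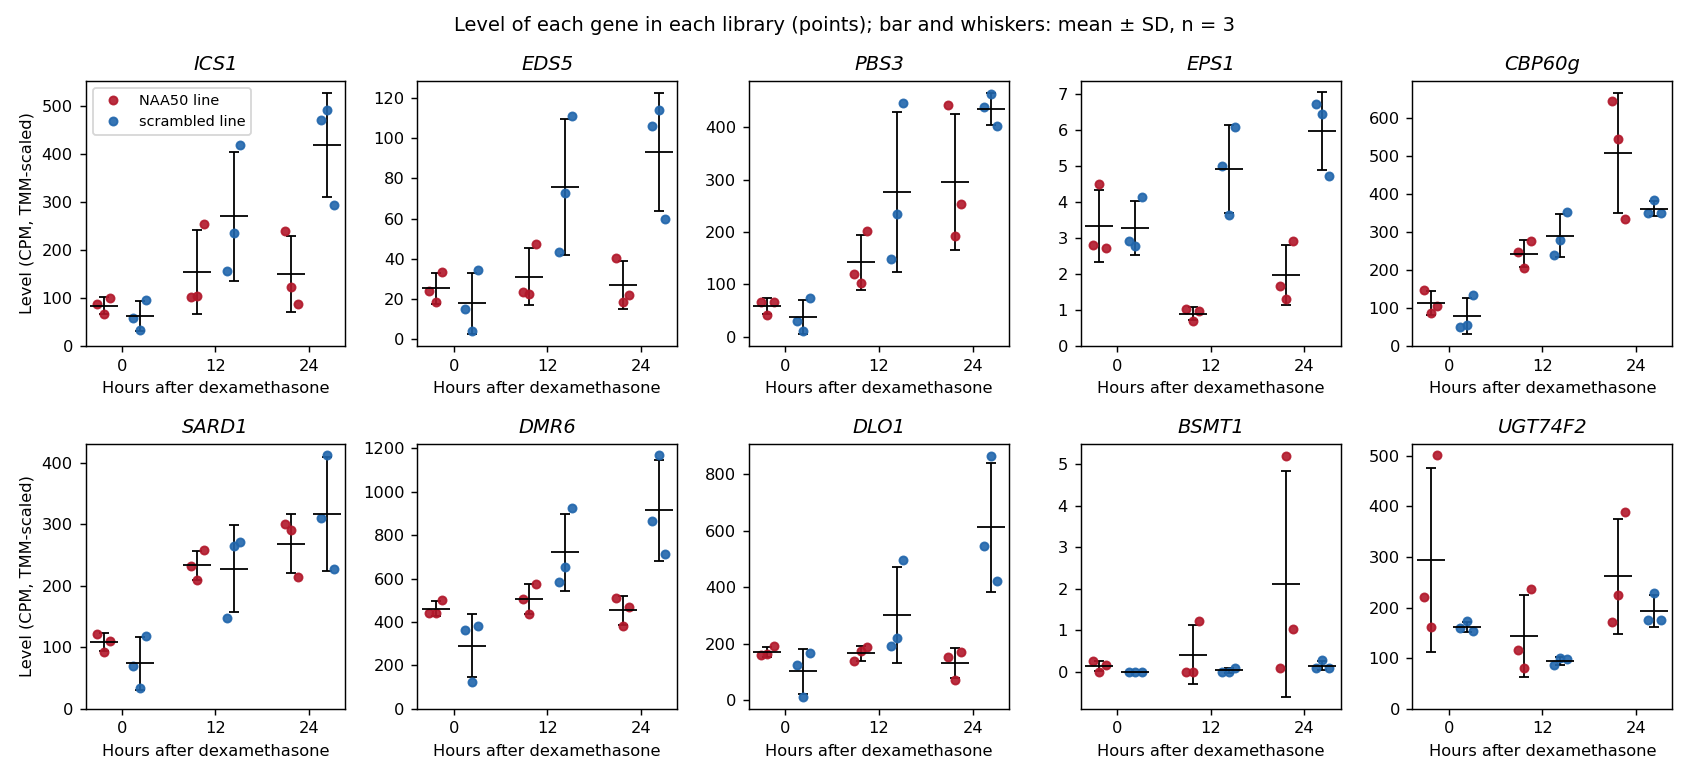
Level of each of the 10 genes in each library (points, CPM scaled by TMM, linear axes that differ between panels) at 0, 12 and 24 h after dexamethasone, with the mean and SD of 3 libraries, the NAA50 line left of the scrambled line at each time. At 24 h the ICS1, EDS5, EPS1, DMR6 and DLO1 points of the NAA50 line lie below all points of the scrambled line, while those of PBS3, CBP60g, SARD1 and UGT74F2 overlap.

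Counted over the 10 members, the line difference at 24 h was called for 6, of which 5 were lower and 1 higher, against 47.9% of all genes tested, of which 4416 were lower and 4378 higher. Without NAA50 line library 2 of 24 h, 2 members were lower and 0 higher, against 3565 lower and 3649 higher among all genes. At 12 h it was called for 1, which was lower, against 46.2% of all genes, of which 4466 were lower and 4018 higher. At 0 h edgeR called 0 members, 1 had an unadjusted p under 0.05 and DESeq2 called 0, against 0.0981% of all genes called in edgeR. Of the 18344 genes tested, 2430 had an unadjusted p under 0.05 at 0 h in edgeR. DESeq2 called 285 genes higher and 27 lower at 0 h among all genes, and edgeR without scrambled line library 3 called 312 higher and 42 lower. The members' groups did not overlap for 5 genes at 24 h and 3 at 12 h, against 54.1% and 59.2% of all genes. The members' median log2 difference was -0.78 at 24 h and -0.66 at 12 h, and that of all genes was -0.03 at both times. At 0 h the members' median lay on the other side, at 0.59, against 4.20e-03 for all genes. Apart from BSMT1, with its low counts, the 0 h values ran from 0.01 for EPS1 to 0.86 for UGT74F2. DMR6 was at 0.67 ± 0.32 (adjusted p = 0.377). The differences in change given below subtract these 0 h values. The change in line difference between 12 and 24 h was called for 0 members in edgeR, with 0 at an unadjusted p under 0.05 and 0 in DESeq2, against 6.77% of all genes called in edgeR. Of the 18344 genes tested, 4367 had an unadjusted p under 0.05 in edgeR for that change. A difference between the lines at 24 h and not at 12 h is therefore not shown to be a change between those times.

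**Figure D2:**
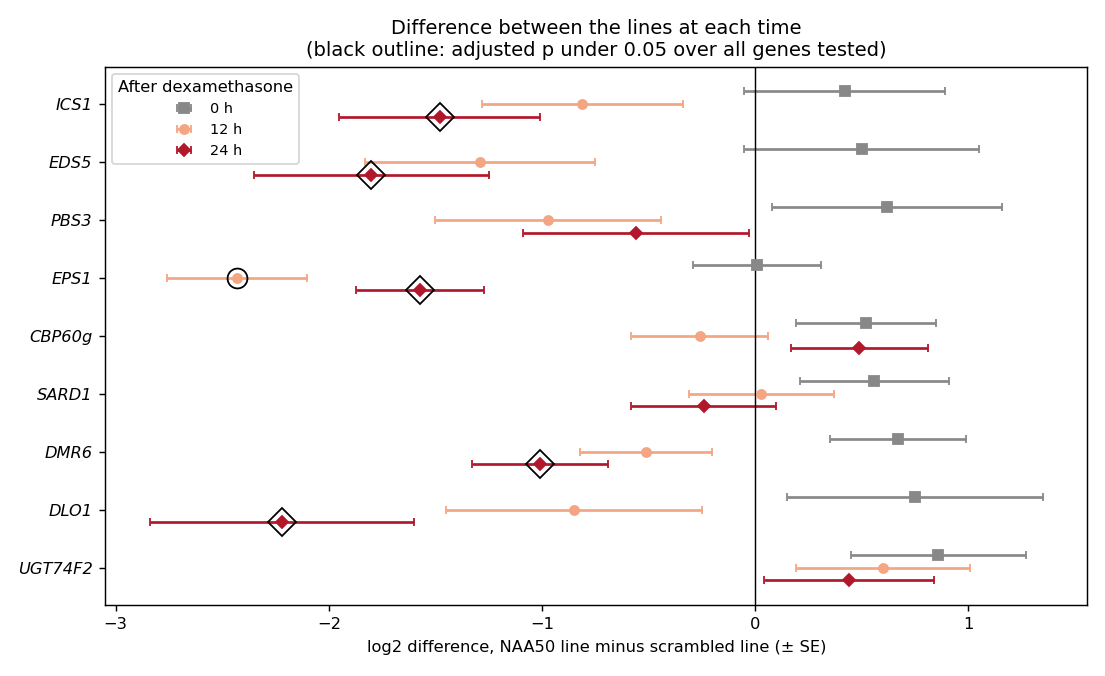
log2 difference between the lines (NAA50 line minus scrambled line, with SE) for 9 genes at 0, 12 and 24 h, with a black outline where the adjusted p was under 0.05. Compared across the times of each gene, ICS1, EDS5, DMR6 and DLO1 lie furthest left at 24 h, and PBS3 and EPS1 at 12 h. EPS1 was also called at 24 h, at -1.57. CBP60g, SARD1 and UGT74F2 stay near or right of 0. BSMT1 is left out for its low counts.

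Within the scrambled line most of the route was higher after the spray than before it. At 24 h 8 members were called higher than at 0 h, against 27.6% of all genes, and at 12 h 7 were, against 23.7%. PBS3 had 439, 463 and 402 CPM at 24 h, against 29.3, 9.98 and 73.9 CPM at 0 h, and was 11.5-fold higher (3.52 ± 0.58, adjusted p = 1.68e-04). ICS1 was 6.65-fold higher (2.73 ± 0.50, adjusted p = 3.38e-04) and DLO1 5.99-fold (2.58 ± 0.63, adjusted p = 0.00299). EDS5, CBP60g, SARD1 and DMR6 were 5.25-fold, 4.54-fold, 4.29-fold and 3.16-fold higher at 24 h, and EPS1 1.81-fold (0.85 ± 0.29, adjusted p = 0.0206). The EPS1 call was lost without scrambled line library 1 or 2 of either time (adjusted p = 0.0605 to 0.0819). At 12 h the called members were these without EPS1, and DLO1 was near the threshold there (adjusted p = 0.0489) and lost its call in 14 of the 18 fits that left out 1 library, with a log2 change of 1.74 without scrambled line library 1 of 0 h, 1.01 without library 2 of 0 h and 1.0 without library 3 of 12 h. The DLO1 call at 12 h was also lost in edgeR with DESeq2 size factors (adjusted p = 0.0514), library size alone (0.063) and only the groups compared (0.157). Without scrambled line library 3 of 0 h the 24 h changes of PBS3, EDS5 and CBP60g were larger. They were 4.46, 3.28 and 2.79 on the log2 scale, against 3.52, 2.38 and 2.18 with it. At 12 h without that library they were 3.81, 2.98 and 2.48, against 2.87, 2.08 and 1.87 with it. UGT74F2 averaged 193 ± 31.2 CPM at 24 h and 162 ± 9.92 CPM at 0 h in the scrambled line (SD, n = 3 each; adjusted p = 0.616).

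In the NAA50 line fewer members changed. At 24 h 4 were called higher than at 0 h, against 28.1% of all genes, and these were PBS3, CBP60g, SARD1 and BSMT1. PBS3 was 5.07-fold higher (2.34 ± 0.55, adjusted p = 0.00214), CBP60g 4.46-fold (2.16 ± 0.34, adjusted p = 6.47e-05) and SARD1 2.47-fold (1.31 ± 0.35, adjusted p = 0.00511). BSMT1 was called from the counts given above (adjusted p = 0.0288), and not without NAA50 line library 2 of 24 h or any 1 NAA50 line library of 0 h (adjusted p = 0.0532 to 0.258). ICS1 averaged 150 ± 79.5 CPM at 24 h and 84.5 ± 17.3 CPM at 0 h (adjusted p = 0.149), EDS5 26.9 ± 12.0 CPM at 24 h and 25.2 ± 7.58 CPM at 0 h (adjusted p = 0.906), and DMR6 453 ± 66.7 CPM at 24 h and 461 ± 33.6 CPM at 0 h (SD, n = 3 each; adjusted p = 0.954). At 12 h CBP60g and SARD1 were called higher, against 26.2% of all genes, and EPS1 and UGT74F2 lower, against 24.4%. EPS1 was 3.70-fold lower at 12 h than at 0 h (-1.87 ± 0.34, adjusted p = 2.92e-04). The CBP60g and SARD1 calls at 12 h were lost without NAA50 line library 2 of 0 h (adjusted p = 0.0544 and 0.0576). PBS3 was not called at 12 h (1.28 ± 0.54, adjusted p = 0.0586), but it was called higher by DESeq2 (adjusted p = 0.0305), with the groups compared alone (adjusted p = 0.0076), and without scrambled line libraries 2 or 3 of 0 h or library 3 of 12 h (adjusted p = 0.0209 to 0.0486). The UGT74F2 call (-1.03 ± 0.41, adjusted p = 0.0449) was lost in 12 of the 18 fits that left out 1 library, and without NAA50 line library 3 of 0 h, which held 502 CPM against 220.3 and 162 CPM in the other two, the change was -0.38.

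**Figure D3:**
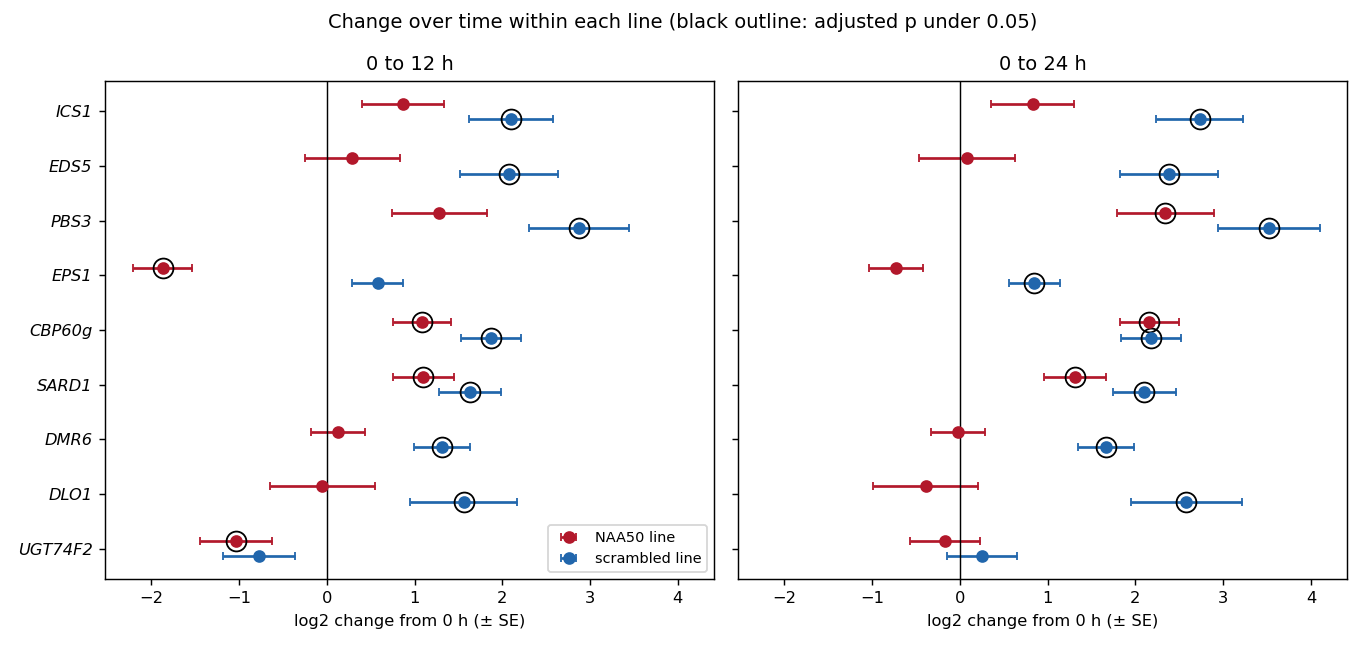
log2 change from 0 h to 12 h (left) and to 24 h (right) with SE in the NAA50 line and the scrambled line for 9 genes, outlined in black where the adjusted p was under 0.05. At 24 h CBP60g changed by 2.16 in the NAA50 line and 2.18 in the scrambled line, while ICS1, EDS5, DMR6 and DLO1 were called higher in the scrambled line and not in the NAA50 line.

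Whether the lines changed differently was tested directly, as the line difference after the spray minus that at 0 h. By 24 h 5 members were called lower in this test, against 15.1% of all genes, and by 12 h EPS1 alone was, against 13.2%. The 24 h values were -1.91 ± 0.67 for ICS1 (adjusted p = 0.0416), -2.30 ± 0.78 for EDS5 (adjusted p = 0.0364) and -1.58 ± 0.42 for EPS1 (adjusted p = 0.0113). They were -1.68 ± 0.45 for DMR6 (adjusted p = 0.0107) and -2.97 ± 0.86 for DLO1 (adjusted p = 0.0172). For CBP60g the value was -0.03 ± 0.46 (adjusted p = 0.977, 95% interval -1.02 to 0.97) and for SARD1 -0.79 ± 0.49 (adjusted p = 0.238, interval -1.86 to 0.27). The EPS1, DMR6 and DLO1 calls at 24 h held with each library left out, while the ICS1 call was lost in 9 of the 18 such fits (adjusted p = 0.0513 to 0.0952) and the EDS5 call in 8 (adjusted p = 0.0533 to 0.0884). Both were lost without NAA50 line libraries 1 or 3 of 0 h, NAA50 line libraries 2 or 3 of 24 h, or scrambled line libraries 1 or 2 of 0 or 24 h, and ICS1 also without scrambled line library 2 of 12 h. The EDS5 call was also lost in the fit of only the groups compared (adjusted p = 0.0558). Without scrambled line library 3 at 0 h, 5 members were called lower by 12 h in place of 1, while the number among all genes was 2324 in place of 2425. The members were EPS1 and, with it, EDS5 (-2.68, adjusted p = 0.016), PBS3 (-2.53, adjusted p = 0.0149), CBP60g (-1.39, adjusted p = 0.0112) and DMR6 (-1.43, adjusted p = 0.0365). At 24 h without that library the EDS5 value was -3.20, and PBS3 (-2.12, adjusted p = 0.0287) and SARD1 (-1.32, adjusted p = 0.0334) were called too. These contrasts share the 0 h libraries with each other and with the changes over time.

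The ratio of 2 genes within a library does not depend on library scaling. The pairs below were chosen after the levels had been seen, so their ratios are given without a test. The ratio of ICS1 to CBP60g counts was 0.372, 0.224 and 0.264 in the NAA50 line at 24 h, against 1.34, 1.28 and 0.842 in the scrambled line. At 0 h it was 0.588, 0.759 and 0.945 in the NAA50 line, against 1.18, 0.611 and 0.719 in the scrambled line. The ratio of DLO1 to SARD1 counts was 0.506, 0.245 and 0.800 in the NAA50 line at 24 h, against 1.77, 2.1 and 1.86 in the scrambled line. The lines' ratios were apart at 24 h for both pairs and overlapped at 0 h.

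**Figure D4:**
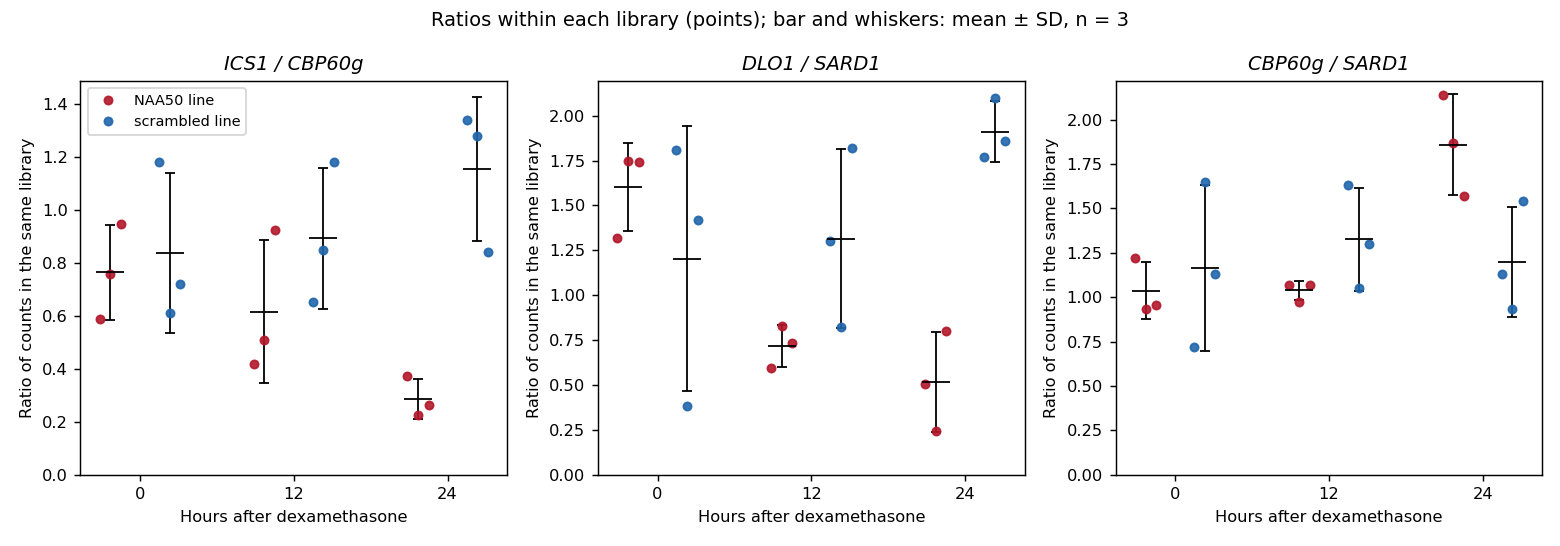
Ratios of counts within each library (points) with the mean and SD of 3 libraries, for ICS1 over CBP60g, DLO1 over SARD1 and CBP60g over SARD1 at 0, 12 and 24 h, the NAA50 line left of the scrambled line. At 24 h ICS1 over CBP60g lies between 0.224 and 0.372 in the NAA50 line and between 0.842 and 1.34 in the scrambled line.

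To compare levels between genes, counts were divided by summed exon length (RPKM). DMR6 was the highest member in all 6 groups, at 307 RPKM in the NAA50 line at 24 h and 619 RPKM in the scrambled line. CBP60g was second in the NAA50 line at 24 h with 220.3 ± 68.5 RPKM, followed by UGT74F2 with 150 ± 64.9 RPKM. In the scrambled line at 24 h DLO1 was second with 451 ± 168 RPKM and ICS1 the third with 192 ± 49.6 RPKM, and PBS3, CBP60g and SARD1 followed at 166, 157 and 132 RPKM, of which PBS3 and CBP60g lay within 1 SD of ICS1. ICS1 was seventh in the NAA50 line at 24 h with 68.8 ± 36.5 RPKM. EDS5, EPS1 and BSMT1 took the 3 lowest places in every group, and EPS1 did not pass 3.57 RPKM in any group mean.

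Over the 18 libraries, the members with the most similar profiles were ICS1 and EDS5. After each gene was centred on its own mean log2 CPM, the root mean square difference between them was 0.37, where ICS1 itself spread by 1.07. CBP60g and SARD1 differed by 0.40. Among all genes tested, the nearest to ICS1 was AT5G60800 (0.35), to EDS5 MSRB9 (0.28), to PBS3 AT1G53625 (0.37) and to EPS1 AST91 (0.30). The nearest to CBP60g was AT5G13200 (0.21), to SARD1 AT1G13470 (0.15), to DMR6 WR3 (0.16), to DLO1 CRK37 (0.27), to UGT74F2 ACX2 (0.34) and to BSMT1 AHG1 (0.67).

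Other genes of the pathway were called in both directions, as were all genes, of which 47.9% were called at 24 h in near equal numbers each way. Of 11 further synthesis genes, 4 were higher and 2 lower in the NAA50 line at 24 h, a share near that of all genes. PAL4, a phenylalanine ammonia lyase of the alternative route to salicylic acid, averaged 44.3 ± 15.4 CPM in the NAA50 line and 3.14 ± 1.25 CPM in the scrambled line (SD, n = 3 each; 3.82 ± 0.35, adjusted p = 6.31e-07). PAL3, of the same family, averaged 2.84 ± 1.13 CPM in the NAA50 line and 11.9 ± 3.99 CPM in the scrambled line (-2.04 ± 0.28, adjusted p = 2.85e-05). AIM1, a beta-oxidation enzyme, was higher at 12 h (0.92 ± 0.14, adjusted p = 6.72e-05), and the chorismate mutase CM1 lower (-0.88 ± 0.18, adjusted p = 8.50e-04) where CM3 was higher (1.16 ± 0.22, adjusted p = 5.40e-04).

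Of 25 further regulators, 9 were higher and 8 lower at 24 h, to be read against the same 47.9%. CBP60a, a relative of CBP60g known to restrain immunity, averaged 760 ± 226 CPM in the NAA50 line and 119.7 ± 15.9 CPM in the scrambled line (2.67 ± 0.26, adjusted p = 1.25e-06). The calmodulin-binding factor CAMTA2 averaged 88.3 ± 14.5 CPM in the NAA50 line and 29.1 ± 3.67 CPM in the scrambled line, and CAMTA1 109 ± 16.9 CPM in the NAA50 line and 56.4 ± 1.77 CPM in the scrambled line (SD, n = 3 each; adjusted p = 6.68e-08 and 1.16e-05). Of 7 further turnover genes tested, 1 was higher and 2 lower at 24 h. GH3.5, which conjugates amino acids to auxin and salicylic acid, was higher (2.07 ± 0.40, adjusted p = 6.13e-04), and the methyl esterase MES2 (-1.80 ± 0.25, adjusted p = 3.43e-05) and the glucosyltransferase UGT76D1 (-1.70 ± 0.36, adjusted p = 0.00116) were lower. Of 9 genes known to respond to salicylic acid, 5 were lower at 24 h and the other 4 were not called, against 4416 of all 18344 genes tested lower. PR1, PR2 and PR5 averaged 1141, 2292 and 2328 CPM in the NAA50 line at 24 h. In the scrambled line they averaged 1828, 2934 and 2886 CPM, and the groups overlapped for each. PCC1 averaged 96.3 ± 53.5 CPM in the NAA50 line and 659 ± 52.5 CPM in the scrambled line (-2.77 ± 0.48, adjusted p = 2.31e-04). WRKY38, a transcription factor gene, was lower by a like amount (-2.75 ± 0.63, adjusted p = 0.00214), as was NIMIN-2, which encodes an interactor of NPR1 (-2.47 ± 0.56, adjusted p = 0.00211).

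Markers of leaf cell types also differed between the lines. The summed level of 7 mesophyll genes ran from 17581 to 22474 CPM in the NAA50 line at 24 h and from 21741 to 36144 CPM in the scrambled line, with 3 of the 7 called lower, and at 12 h all 7 were called lower. Before the spray this sum already ran from 37805 to 50546 CPM in the NAA50 line and from 49211 to 67143 CPM in the scrambled line, with 0 called. With the 0 h difference subtracted, 1 of the 7 was called lower at 12 h and 1 at 24 h, against 13.2% and 15.1% of all genes. The summed level of 6 xylem genes ran from 101 to 137 CPM in the NAA50 line at 24 h and from 18.4 to 43.7 CPM in the scrambled line, with 5 of the 5 tested called higher. The 5 guard cell genes summed to between 34.3 and 36.8 CPM in the NAA50 line at 24 h and between 54.2 and 64.1 CPM in the scrambled line, with 2 called lower. KAT1 alone averaged 20.1 CPM in the NAA50 line and 44.5 CPM in the scrambled line, while FAMA averaged 9.28 CPM in the NAA50 line and 7.33 CPM in the scrambled line, so the guard cell sum follows mainly KAT1. The 6 phloem genes summed to between 948 and 1357 CPM in the NAA50 line at 24 h and between 772 and 853 CPM in the scrambled line, with 4 called higher and 2 lower. SUC2 alone averaged 787 CPM in the NAA50 line and 239 CPM in the scrambled line, so the phloem sum follows mainly SUC2. AHA3 averaged 225 CPM in the NAA50 line and 364 CPM in the scrambled line, and PP2-A1 122 and 159 CPM. The 5 epidermis genes summed to between 682 and 1134 CPM in the NAA50 line and between 399 and 508 CPM in the scrambled line, with 2 called higher and 2 lower of 4 tested. Of all genes, 46.2% were called at 12 h and 47.9% at 24 h. With the 0 h difference subtracted, 5 xylem, 3 phloem and 2 epidermis genes were called higher at 24 h, against 2694 of all genes. In that test 2 guard cell genes and 1 phloem gene were called lower, against 2764 of all genes. None of these markers was at 0 in a group. Their part in the members' differences was not tested, and in bulk leaf RNA fewer cells of a type and less RNA per cell cannot be told apart. Root markers summed to at most 1.32 CPM and flower markers to at most 1.02 CPM in any library.

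Some members share bases with a neighbour in the annotation, and whether the counting used strand is not given. EDS5 overlaps AT4G39040 on the other strand by 213 bases, and AT4G39040 averaged 27.2 ± 1.95 CPM in the NAA50 line at 24 h and 29.2 ± 6.29 CPM in the scrambled line (SD, n = 3 each). SARD1 overlaps GIP2 on the other strand by 640 bases, where GIP2 group means were 2.77 to 5.88 CPM. BSMT1 overlaps AT3G11490 on the other strand by 79 bases. AT3G11490 group means were 7.52 to 12.4 CPM, against at most 2.11 CPM for BSMT1. UGT74F2 overlaps the pseudogene AT2G43830 on the other strand by 62 bases, and AT2G43830 was not among the genes counted. No member had a near-identical copy.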

How the data were processed

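RNA sequencing of 18 leaf samples was analysed. The authors deposited raw counts per gene, per the file headers and whole-number values, in 1 table of 23790 genes, and all 18 sample columns were used. Per the submitters' processing notes, Trimmomatic, STAR, DESeq2 and the build TAIR10 were used. Their versions, the counting program and its strand setting were not given in the sources used here. Each column was assigned by the line, time and number in a sample's title, also for the scrambled samples at 12 h, whose short title code is unlike the column name. Positions and symbols came from TAIR10.1, where 23500 identifiers (98.8%) were found.

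In R 4.3.3 with edgeR 4.0.16, filterByExpr (minimum count 10, minimum total 15) kept 18344 genes (77.1%). After TMM scaling, a model with a mean for each of the 6 groups was fitted to the 18 libraries together (prior count 0.125). It left 12 residual degrees of freedom, with a coefficient of biological variation of 18.16%. Contrasts were tested by the quasi-likelihood F test with Benjamini-Hochberg adjustment over all genes, called at adjusted p under 0.05. A ± after a log2 value is the SE, the size divided by the square root of F. CPM use the scaled library size. A count of 0 allows 0.224 to 0.322 CPM (3 counts), which covers counting error only. Likeness used log2 CPM with a prior count of 2. The fitting was tested on simulated data. Gene copies were sought with BLAST 2.17.0.

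Alternatives were DESeq2 1.42.0, its size factors, library size alone, no filter, only the groups compared, the replicate number as a block, and each library left out. The members and the lists of pathway genes and markers were chosen with earlier results of these data known. Named genes were all members, the targeted gene, overlapping genes, the genes of nearest profile, and up to 3 called pathway genes per role with the smallest adjusted p. CAMTA3, WRKY70, PR1, PR2 and PR5 were named besides these. DLO2 and MES4 were not analysed here.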

Additional observations from a re-analysis of the deposited data

Results flagged for a closer look

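For 6 values the change over time differed between the lines by the direct test, with adjusted p under 0.05 in edgeR. By 12 h the NAA50 line's log2 change less the scrambled line's was -2.44 for EPS1. By 24 h it was -1.91 for ICS1, -2.30 for EDS5, -1.58 for EPS1, -1.68 for DMR6 and -2.97 for DLO1. All 6 use the scrambled libraries at 0 h, among which library 2 stood apart.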

How the results depend on the processing

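Of 496 member values under the 6 other settings, 478 kept direction and side of the threshold, 7 lost the call, 8 gained one and 3 changed sign. Of 1494 with a library left out, the numbers were 1393, 62, 17 and 22. The cause of these changes was not tested.

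Members lower in the NAA50 line at 12 h numbered 2 in place of 1 with DESeq2, with the replicate block and with only the groups compared, and 1 to 3 with a library left out. Among all genes 4448, 4420 and 4439 were lower with these settings, in place of 4466. Members higher at 24 h numbered 0 in place of 1 with DESeq2, and 0 with only the groups compared, where BSMT1 had no test because it did not pass the filter, and 0 to 1 with a library left out. Among all genes 4376 were higher with DESeq2 and 3869 with only the groups compared, in place of 4378. Members lower at 24 h numbered 2 to 5 with a library left out, with 2 without NAA50 line library 2. Without that library 3565 of all genes were lower, in place of 4416. For the difference in change by 12 h, 2 members were lower with DESeq2, and 1 to 5 with a library left out. Among all genes 2602 were lower with DESeq2, in place of 2425. By 24 h the range for members was 3 to 7 with a library left out, with 7 without scrambled line library 3 of 0 h. Without that library 2767 of all genes were lower in this test, in place of 2764. In the line difference at 0 h 0 to 1 members were higher. In the NAA50 line by 12 h, 3 members in place of 2 were higher with DESeq2, with the replicate block and with only the groups compared, and 0 to 3 with a library left out, with 0 without library 2 of 0 h. Among all genes 4764, 4723 and 4856 were higher with the first 3 settings and 4157 without that library, in place of 4806. In that line by 12 h 1 member in place of 2 was lower with library size alone and with only the groups compared, and 1 to 2 with a library left out. Among all genes 3758 and 4644 were lower with the first 2 settings, in place of 4483. By 24 h 0 to 1 members were lower in that line. In the scrambled line by 12 h 1 member was lower, in place of 0, with only the groups compared, against 3253 of all genes in place of 3767.

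All sign changes were in values that were not called. EPS1 at 0 h was -6.57e-04 with DESeq2, -3.41e-04 with its size factors and -0.25 to 0.22 with a library left out. DLO1 in the NAA50 line by 12 h was 0.04 with library size alone and -0.14 to 0.08 with a library left out. With a library left out, EDS5 in that line ran from -0.14 to 0.57 by 12 h and from -0.34 to 0.34 by 24 h, DMR6 from -0.12 to 0.09 by 24 h, and UGT74F2 from -0.57 to 0.45 by 24 h. SARD1 at 12 h ran from -0.20 to 0.18. The difference in change by 24 h ran from -0.63 to 0.22 for CBP60g and from -0.83 to 0.22 for UGT74F2, and by 12 h from -0.81 to 0.42 for UGT74F2.

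The replicate numbers did not pair the samples across the study: 21 of 45 correlations of deviations between same-numbered samples were above 0.1 (range -0.485 to 0.409). All 3 were above 0.1 in 2 of 15 pairs of groups, 1 of which was the lines at 12 h (0.128, 0.22 and 0.342). With the number as a block, EDS5 at 12 h was called (adjusted p = 0.046) and so was PBS3 in the NAA50 line by 12 h (adjusted p = 0.0365). Depth limits EPS1 and BSMT1 most.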
